A study of Mus musculus with 35 samples.

Results

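Suv420h1 and Suv420h2, the histone methyltransferases that the studied knockout targets, were followed in brown adipose tissue of female mice. Both genes were looked up by name in the deposited gene counts, under these names and under their current names Kmt5b and Kmt5c, and 2 of 2 were found among 13233 genes of the second experiment. Both passed the filter on low counts that left 12082 genes to test. The table of the first experiment, 15 libraries of mice aged 4 weeks, holds 0 rows for either gene, so their levels there were not analysed here.

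The second experiment consists of 20 libraries in 4 groups of 5: control and double knockout (Suv420h dKO) mice, each fed either a normal diet or a high fat diet with 45 kJ% fat for 14 weeks. All were female and 21 weeks old. Strain, alleles and the cells in which they were deleted were not given in the sources used here. No label says whether the 5 libraries of a group come from 5 animals, so a p-value here reflects library-to-library spread alone, and that spread may be technical. The comparisons ask how the transcripts of the targeted genes differ between genotypes on each diet and between diets within each genotype.

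As background, both enzymes act on lysine 20 of histone H4. Kmt5a first adds a single methyl group, and Suv420h1 and Suv420h2 then extend it to the di- and trimethylated forms. The trimethylated form marks silent, compact chromatin, above all the repeats around centromeres, where HP1 proteins help to bring the Suv420h enzymes, and the dimethylated form is spread widely and is read by repair and replication factors. Brown fat burns fuel to make heat, and its cells carry many mitochondria and the uncoupling protein Ucp1.

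Suv420h1 (ENSMUSG00000045098.19) lies on the plus strand of chromosome 19, from 3767421 to 3818303 in GRCm38, and spans 50883 bp. Its longest annotated protein has 883 amino acids, encoded by a transcript of 12 exons. Suv420h2 (ENSMUSG00000059851.15) lies on the plus strand of chromosome 7, from 4740115 to 4747514, and spans 7400 bp, with a longest protein of 468 amino acids and 9 exons. The libraries were primed from the poly(A) tail, so counts come from close to a transcript's 3' end and do not grow with transcript length. The annotation lists 20 different 3' ends over 21 transcripts of Suv420h1 and 10 over 12 transcripts of Suv420h2, and the table sums them. An antisense gene, Gm16066 (chromosome 19, 3798615 to 3852419), overlaps the 3' part of Suv420h1. Since the strand setting of the counting was not given in the sources used here, reads of Suv420h1 and of that antisense gene could not be told apart.

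The promoter windows of both genes are shown because a called difference in 1 of the 2 transcripts leads the results. They are RefSeq sequences on GRCm38.p6, from 250 bases before to 50 bases after an annotated start, read 5′ to 3′ on the plus strand. Capitals mark matches, on either strand, to CCAAT, to GGGCGG (known as the GC box), to TATAAA (the letters of a core promoter element), to AGGTCA (a nuclear receptor half-site) or to TGACG (a cyclic AMP response half-site).
Suv420h2, chr7:4739877-4740176: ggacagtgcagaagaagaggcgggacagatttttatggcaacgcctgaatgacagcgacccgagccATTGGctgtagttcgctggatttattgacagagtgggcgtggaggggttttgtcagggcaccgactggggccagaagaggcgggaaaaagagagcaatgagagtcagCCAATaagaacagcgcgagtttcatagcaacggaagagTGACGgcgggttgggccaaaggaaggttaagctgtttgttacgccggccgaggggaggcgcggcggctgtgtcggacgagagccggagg
Suv420h1, chr19:3767171-3767470: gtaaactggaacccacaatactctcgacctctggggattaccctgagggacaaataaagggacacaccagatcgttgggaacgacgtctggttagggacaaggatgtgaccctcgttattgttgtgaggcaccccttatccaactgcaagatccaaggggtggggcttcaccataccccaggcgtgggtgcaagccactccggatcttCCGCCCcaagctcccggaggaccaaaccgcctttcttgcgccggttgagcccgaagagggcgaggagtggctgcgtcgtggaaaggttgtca
The Suv420h2 window holds 2 CCAAT matches, 77 bases before the start on the plus strand and 184 bases before it on the minus strand, and 1 TGACG match at 39 bases before it. The Suv420h1 window holds 1 GGGCGG match, on the minus strand at 42 bases before the start. Neither holds TATAAA or AGGTCA, and no 2 matches overlap. Of 27025 mouse promoter windows of the same length, 37.9% hold CCAAT, 21% TGACG, 35.9% GGGCGG, 14.2% TATAAA and 16% AGGTCA. Both windows are rich in CpG, with 22 and 16 of these dinucleotides against a median of 7, and a GC content of 57.7% and 57.3% against 52.7%. Another annotated start of Suv420h1, with its window at chr19:3767639-3767938, has 38 CpG and 2 GGGCGG matches. A match is a description of these letters only.

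Total counts per library ranged from 2398807 to 7693388. Of 11 brown adipocyte markers, 11 were measured, and each was counted in every library. Their summed level, in CPM (counts scaled to a common library size), was 25620 ± 7103 in controls and 33100 ± 3454 in the knockout on normal diet, and 37610 ± 10170 and 39500 ± 7811 on high fat diet (SD, n = 5). That order of group means is the reverse of that of Suv420h2, and its part in the Suv420h2 values was not tested. Skeletal muscle transcripts were also present and uneven: the summed level of 17 of 17 muscle markers ran from 141 to 39960 CPM in control libraries and from 102.5 to 2276 CPM in the knockout on normal diet. On high fat diet it ran from 54.4 to 4852 CPM in controls and from 66.3 to 154.8 CPM in the knockout. No muscle marker was at 0 in all libraries, and Myh7 and Actn3 were at 0 in at least 1 library of each group. The share of counts from mitochondrially encoded genes was 11.9% to 18.3% in controls and 17.7% to 19.1% in the knockout on normal diet. On high fat diet it was 17.1% to 25.9% in controls and 16.7% to 26.1% in the knockout. In bulk tissue, fewer cells of a type and less RNA per cell cannot be told apart.

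Suv420h2 transcripts were highest in control libraries on normal diet, and fell both in the knockout on that diet and in control libraries on high fat diet. Its level came to 0.359 of the control level in the knockout and to 0.355 of the normal diet level in controls. In the knockout on high fat diet the mean was lower still, but its differences from the neighbouring groups did not pass the test. The 2 differences that passed lost their call with the muscle markers or the mitochondrial share as a covariate, as given below. No Suv420h1 difference passed the test in any comparison made.

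The raw Suv420h2 counts were 480, 159, 222, 146 and 170 in control replicates 1 to 5 on normal diet. They were 74, 82, 48, 121 and 99 in the knockout on the same diet. Scaled to the TMM-adjusted library size, the control libraries stood at 75.3, 39.8, 27.7, 65.7 and 41.1 CPM. Every one of them lay above every knockout library on that diet. The knockout libraries stood at 20.8, 21.5, 10.2, 16.8 and 20.4 CPM. Without scaling, the nearest libraries of the 2 groups were control replicate 3, at 28.9 CPM with an exact Poisson 95% interval of 25.2 to 32.9, and knockout replicate 2, at 22.4 CPM with an interval of 17.8 to 27.8. Those intervals overlap, and they cover counting error only.

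On high fat diet the Suv420h2 counts were 68, 42, 145, 142 and 130 in control libraries. They were 26, 93, 70, 72 and 60 in the knockout. The control group was split, with replicates 1 and 2 at 11.5 and 7.42 CPM and replicates 3 to 5 at 21.5, 22.7 and 25.2 CPM on the TMM scale. The knockout libraries stood at 4.89, 16.6, 10.8, 9.81 and 10.1 CPM, inside or below the range of the controls. The lowest count of all, 26 in knockout replicate 1, corresponds to 4.38 CPM of the plain library total, with an exact Poisson 95% interval of 2.86 to 6.41, so the transcript was detected in every library, knockout libraries included.

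**Figure D1:**
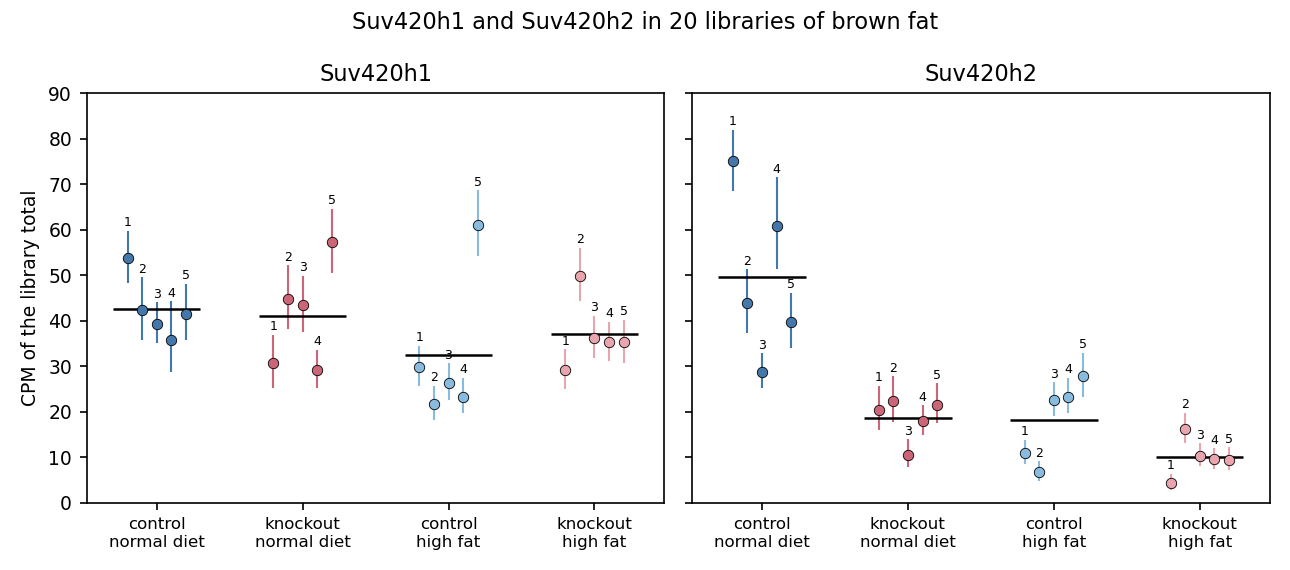
CPM of the plain library total (linear axis) for Suv420h1 (left) and Suv420h2 (right) in the 20 libraries of the second experiment. Points are libraries numbered by replicate, vertical lines exact Poisson 95% intervals (counting error only) and horizontal lines group means. For Suv420h2, 5 control libraries on normal diet, the lowest at 28.9 CPM, lie above all other libraries, while the 4 groups overlap for Suv420h1.

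On normal diet the Suv420h2 fold change in the knockout was -1.48 on the log2 scale, with a 95% interval of -2.17 to -0.78 and an adjusted p of 0.0218 in edgeR's quasi-likelihood test (n = 5 per group). It ranked 102 of 12082 genes by p. In this comparison 2.65% of all genes tested were called at an adjusted p below 0.05 and 1.36% of all genes were called lower, and 1 of the 2 targeted genes was called. The exact permutation test over 252 splits gave p = 0.00794, two-sided, the smallest that 5 libraries against 5 allow. The call was lost without control replicate 4 (-1.36, adjusted p = 0.0506), without knockout replicate 3 (-1.32, adjusted p = 0.0604) and without knockout replicate 4 (-1.45, adjusted p = 0.0512), all by edgeR.

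Suv420h2 also fell by diet in control mice. High fat against normal diet gave a fold change of -1.50 on the log2 scale, with a 95% interval of -2.19 to -0.80 and an edgeR adjusted p of 0.0334, rank 52 of 12082. All 5 control libraries on high fat diet lay below all 5 on normal diet, with p = 0.00794 in the exact permutation test, again the smallest possible. In this comparison 0.795% of all genes were called and 0.389% of all genes were called lower, and again 1 of the 2 targeted genes. The comparison shares its 5 control libraries on normal diet with the knockout comparison on that diet. It kept its call in 13 of the 20 fits that omit a library: edgeR's adjusted p rose above 0.05 without control replicate 1, 2 or 4 on normal diet (0.0558, 0.0588 and 0.0683) and without control replicate 1, 2 or 4 on high fat diet (0.117, 0.121 and 0.0502). It also did so without knockout replicate 4 on high fat diet (0.0503), a library outside this comparison that enters through the shared fit.

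The other Suv420h2 contrasts did not pass. For the knockout on high fat diet the log2 fold change was -0.76, with a 95% interval of -1.45 to -0.06 and an edgeR adjusted p of 0.913 (0.0345 unadjusted); the exact permutation p was 0.127. Here 0.116% of all genes were called and 0 of the 2 targeted genes. For high fat against normal diet in the knockout it was -0.78, with a 95% interval of -1.48 to -0.07 and an adjusted p of 0.478 in edgeR (0.0316 unadjusted); the exact permutation test gave an unadjusted p of 0.0317. In that comparison 0.372% of all genes were called and 0 of the 2 targeted genes. Both intervals reach from near 0 to about the size of the called differences, so these libraries do not settle the size of either.

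Whether the knockout difference depended on diet was tested directly. The interaction for Suv420h2 was 0.72 on the log2 scale, with a 95% interval of -0.26 to 1.70 and an edgeR adjusted p of 0.850. For this term 0% of genes were called by edgeR at the adjusted threshold, 772 had an unadjusted p below 0.05, and DESeq2 called 12. Averaged over both diets, the knockout difference was -1.12, with a 95% interval of -1.61 to -0.63 and an edgeR adjusted p of 0.0117, where 3% of all genes were called and 1.42% of all genes were called lower. That average kept its call whichever single library was omitted (20 of 20), but lost it with the mitochondrial share as a covariate (-0.75, edgeR adjusted p = 0.115).

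In order of mean level on the TMM scale, Suv420h2 stood at 49.9 ± 19.8 CPM in control libraries on normal diet, 17.9 ± 4.71 in the knockout on normal diet, 17.6 ± 7.73 in control libraries on high fat diet and 10.4 ± 4.17 in the knockout on high fat diet (SD, n = 5). The middle groups gave no called difference, at 0.02 on the log2 scale with a 95% interval of -0.67 to 0.71 and an edgeR adjusted p of 0.995. In this comparison 1.4% of all genes were called. Among all tag counts, which do not depend on length, Suv420h2 stood above 80.7% of the genes tested in control libraries on normal diet. It stood above 59.2% in each of the middle groups and above 47.4% in the knockout on high fat diet.

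**Figure D2:**
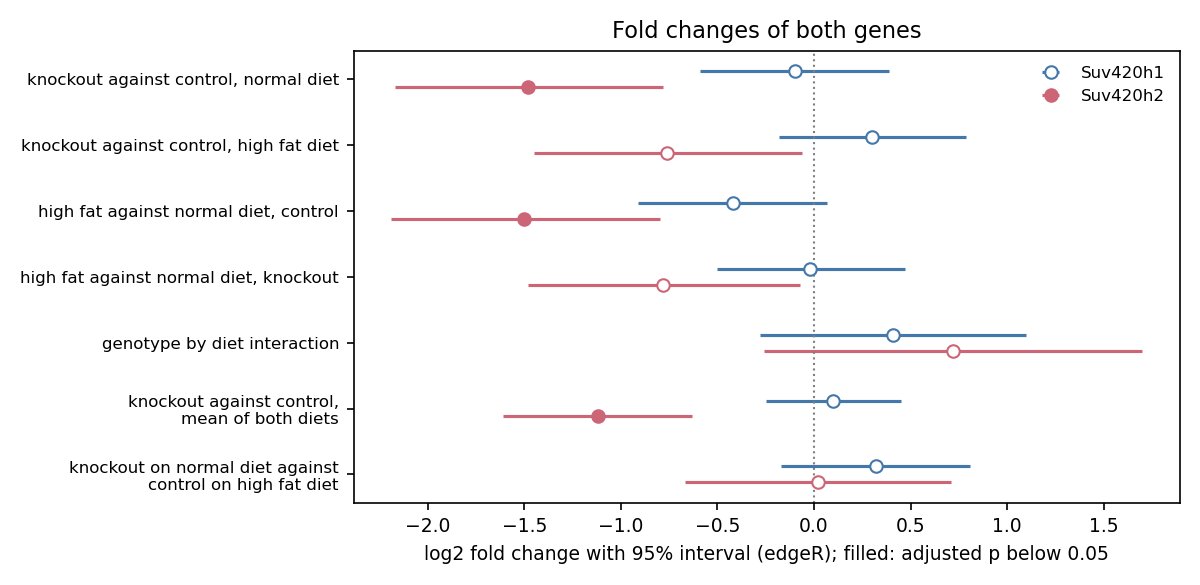
log2 fold changes of Suv420h1 (blue) and Suv420h2 (red) in 7 comparisons over 20 libraries, with edgeR 95% intervals as horizontal lines. Filled points passed an adjusted p of 0.05: they are the 3 Suv420h2 values -1.48, -1.50 and -1.12, while every Suv420h1 interval includes 0.

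Suv420h1 gave no called difference. Its raw counts were 344, 153, 303, 86 and 178 in controls and 111, 164, 198, 197 and 263 in the knockout on normal diet. They were 185, 136, 170, 142 and 286 in controls and 173, 287, 245, 267 and 223 in the knockout on high fat diet. All pairs of groups overlapped.

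The libraries labelled knockout thus carried Suv420h1 tags at levels that overlapped those of controls. For the knockout on normal diet the log2 fold change was -0.10, with a 95% interval of -0.59 to 0.39 and an edgeR adjusted p of 0.838. On high fat diet the knockout stood 0.30 higher, with a 95% interval of -0.18 to 0.79 and an adjusted p of 0.999 in edgeR. A 3' tag lying outside the deleted part checks nothing about the deletion, and which exons were deleted in either gene was not given in the sources used here.

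By diet, Suv420h1 differed by -0.42 in control libraries, with a 95% interval of -0.91 to 0.07 and an edgeR adjusted p of 0.387. In knockout libraries it differed by -0.02, with an interval of -0.50 to 0.47. The control group on high fat diet had its highest library in replicate 5, at 55.4 CPM on the TMM scale against 31.2, 24.0, 25.2 and 22.7 CPM in replicates 1 to 4. Without it the diet difference in controls was -0.71 with an edgeR adjusted p of 0.0937, and the knockout difference on high fat diet was 0.60 with an adjusted p of 0.617. The 4 group means, 42.4 ± 6.82, 39.5 ± 10.6, 39.1 ± 7.14 and 31.7 ± 13.6 CPM (SD, n = 5) in the order control and knockout on normal diet, knockout and control on high fat diet, gave no called difference.

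Whether the 2 genes moved differently was tested on their ratio within each library, in which the scaling of the library cancels. The ratio of Suv420h2 to Suv420h1 counts was 1.40, 1.04, 0.733, 1.70 and 0.955 in controls and 0.667, 0.50, 0.242, 0.614 and 0.376 in the knockout on normal diet. On high fat diet it was 0.368, 0.309, 0.853, 1.00 and 0.455 in controls and 0.150, 0.324, 0.286, 0.270 and 0.269 in the knockout. On normal diet the groups did not overlap, and on high fat diet knockout replicate 2 passed only control replicate 2.

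In the knockout the mean log2 ratio was lower by 1.31 on normal diet, at p = 0.00794, and by 1.09 on high fat diet, at p = 0.0159, in the two-sided exact permutation test. Adjusted over the 5 comparisons of this ratio, both came to 0.0397. By diet it was lower by 1.06 in controls and by 0.84 in the knockout, each at exact permutation p = 0.0476 and 0.0595 adjusted, which did not pass. The knockout differences kept an exact p below 0.05 with each single library left out. No test of the ratio took the muscle or mitochondrial counts into account, and their part in it was not tested. These tests were added after the single-gene results were known.

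**Figure D3:**
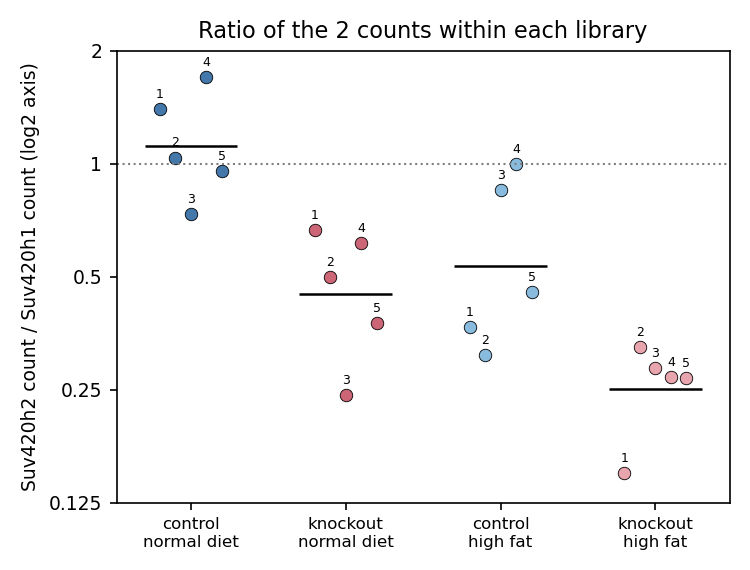
Ratio of Suv420h2 to Suv420h1 counts in each of 20 libraries (log2 axis), numbered by replicate, with horizontal lines at the mean of the log2 ratios of each group. The knockout libraries on normal diet lie between 0.242 and 0.667, below all 5 controls on that diet, and those on high fat diet between 0.150 and 0.324.

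The muscle and mitochondrial counts moved with the groups in which Suv420h2 differed. The muscle score, which averages the log2 CPM of the 17 muscle markers, was 7.21 ± 3.16 in controls and 3.39 ± 2.24 in the knockout on normal diet, and 1.48 ± 3.21 and 0.15 ± 0.11 on high fat diet (SD, n = 5). With that score as a covariate the Suv420h2 differences were about as large, at -1.56 for the knockout on normal diet (edgeR adjusted p = 0.0590) and -1.61 for diet in controls (adjusted p = 0.298), and neither passed. Without the 4 muscle-rich libraries, those with a score above 7, which are control replicates 2, 3 and 4 on normal diet and control replicate 3 on high fat diet, they were -1.72 (adjusted p = 0.0507) and -1.78 (adjusted p = 0.0759), again by edgeR and past neither threshold. Control replicates 1 to 5 on normal diet had muscle scores of 2.37, 10.31, 7.95, 9.43 and 6. Their Suv420h2 levels were 75.3, 39.8, 27.7, 65.7 and 41.1 CPM on the TMM scale.

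The mitochondrial share moved with Suv420h2 also inside the groups. Over 20 libraries, after subtracting the group means, Pearson's r between the 2 was -0.68 (permutation p = 0.00579, adjusted p = 0.0405 over 7 such relations) and Spearman's rho -0.61 (permutation p = 0.0193, adjusted p = 0.135). Without the 2 libraries farthest from the median share r was -0.52. With the mitochondrial share as a covariate the knockout difference on normal diet was -0.96 (edgeR adjusted p = 0.190) and the diet difference in controls -0.79 (adjusted p = 0.594). For Suv420h1 the same within-group r was -0.25 (permutation p = 0.344, adjusted p = 0.422), and its r with Suv420h2 was 0.41 (permutation p = 0.118, adjusted p = 0.277). Between the muscle score and Suv420h1 the within-group r was -0.52 (permutation p = 0.0642, adjusted p = 0.225). Spearman's rho of that pair was -0.50 (permutation p = 0.0413, adjusted p = 0.145). Between the muscle score and Suv420h2 r was -0.06 (permutation p = 0.822, adjusted p = 0.822).

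**Figure D4:**
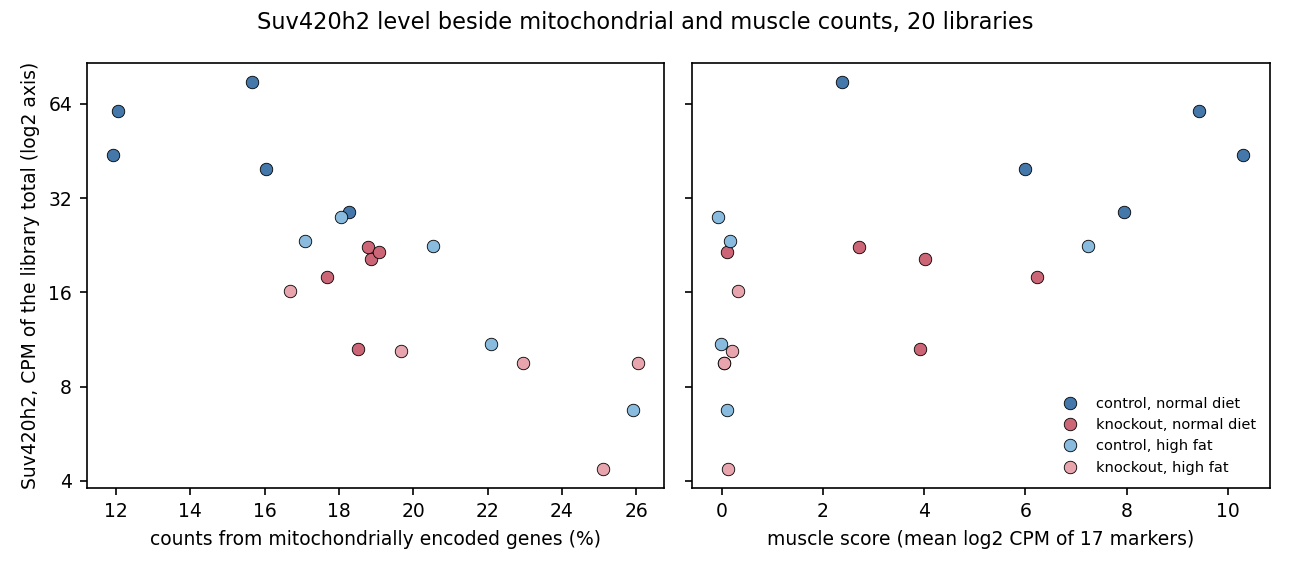
Suv420h2 level (CPM of the plain library total, log2 axis) against the percentage of counts from mitochondrially encoded genes (left) and against the muscle score, averaged over the log2 CPM of 17 markers (right), in 20 libraries coloured by group. Control libraries on normal diet (dark blue) hold the highest Suv420h2 levels together with mitochondrial shares of 11.9% to 18.3% and muscle scores of 2.37 to 10.3.

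In the authors' deposited table of the second experiment, whose headers do not state the diet, Suv420h2 had a log2 fold change of -1.93 with an adjusted p of 0.0149, rank 159 of 13251 genes. The authors' deposited table gives Suv420h1 0.21 with an adjusted p of 0.742. That table, too, has Suv420h2 past the threshold of 0.05 and Suv420h1 not past it.

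The other enzymes of the same mark showed no called change. Of 7 listed writers and erasers of methylation at lysine 20 of histone H4, 6 were tested. In the 4 comparisons of genotype or diet and in the interaction 0 of them passed. Of all genes, 2.65% and 0.116% were called for the knockout on normal and on high fat diet. For diet in controls, diet in knockouts and the interaction the shares were 0.795%, 0.372% and 0%, and 0 of 6 lies near all of them. By edgeR 1 had an unadjusted p below 0.05, for diet in controls, against 1957 of 12082 genes tested, and DESeq2 and voom called 0. Their median fold change for the knockout on normal diet was 0.24, against 0.02 over all genes tested. Kmt5a, which makes the monomethylated substrate and was singled out after its values were seen, stood at 103.4 ± 25.8 CPM in controls and 138 ± 18.1 CPM in the knockout on normal diet (SD, n = 5; 0.41 log2, edgeR adjusted p = 0.402). By the smallest p, the list's leading members were Smyd5, reported to trimethylate this lysine in mouse stem cells, at -1.01 (adjusted p = 0.306), and Phf8, a demethylase of the monomethylated form, at 0.50 (adjusted p = 0.370).

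Readers of the mark were also uncalled. Of 8 listed, 5 were tested and 0 passed in the same 5 comparisons. There 2.65%, 0.116%, 0.795%, 0.372% and 0% of all genes were called, and 0 of 5 lies near these shares. Their median for the knockout on normal diet was -0.37, against 0.02 over all genes tested. By edgeR 1 had an unadjusted p below 0.05 for the knockout on high fat diet and 1 for diet in controls. Of 12082 genes tested, 612 and 1957 did so, and DESeq2 and voom called 0 of the readers. L3mbtl2, a reader found in Polycomb complexes, stood at 10.8 ± 4.92 CPM in controls and 6.17 ± 3.70 CPM in the knockout on that diet (-0.80 log2, edgeR adjusted p = 0.292). Tonsl, which recognises the unmethylated lysine on newly made histones, stood at 33.9 ± 10.9 and 26.1 ± 6.40 CPM (-0.37 log2, edgeR adjusted p = 0.343).

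Among partners in heterochromatin, 16 of 20 listed genes were tested, and 2 rose in the knockout on normal diet, where 1.29% of all genes were called higher. Cbx5, which encodes the HP1α protein that binds methylated histone H3 in heterochromatin, rose from 52.3 ± 10.1 to 85.5 ± 4.71 CPM (SD, n = 5; 0.71 ± 0.18 SE log2, edgeR adjusted p = 0.0320). Atrx, a chromatin remodeller that places histone H3.3 at repeats, rose from 99.5 ± 18.2 to 157.9 ± 19.3 CPM (0.67 ± 0.17 SE, edgeR adjusted p = 0.0339). The median of the list was 0.17 on the log2 scale, with 11 members above 0 and 5 below it. These are also the groups between which the muscle score and the mitochondrial share differed. Fits with each as a covariate follow, and the cause of the differences in Cbx5 and Atrx was not tested. With the muscle score as a covariate the fold changes were 0.59 for Cbx5 and 0.63 for Atrx (edgeR adjusted p = 0.181 and 0.159), and with the mitochondrial share 0.79 and 0.69 (0.0573 and 0.106), about as large but past no threshold. Without the 4 muscle-rich libraries they were 0.49 and 0.61 (edgeR adjusted p = 0.232 and 0.133), and with only the groups compared 0.68 and 0.63 (0.0919 and 0.101). Cbx5 also lost its call without control replicate 2 or 4 or any 1 of the 5 knockout libraries on normal diet (edgeR adjusted p up to 0.0690). Atrx lost it without control replicate 1 or 2 or knockout replicate 1, 2, 3 or 4 on normal diet, or without knockout replicate 4 on high fat diet (adjusted p up to 0.0746).

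Of 26 other listed SET-domain genes, 26 were tested and 2 rose in the knockout on normal diet, where 1.29% of all genes were called higher. Kmt2a, which methylates lysine 4 of histone H3, rose from 40.9 ± 9.89 to 85.2 ± 17.7 CPM (1.06 ± 0.20 SE log2, edgeR adjusted p = 0.00908). With high fat feeding its level was 50.8 ± 9.95 CPM in controls and 54.4 ± 9.89 CPM in the knockout (SD, n = 5). Its call held in all 20 fits that omit a library and was lost without the 4 libraries with a muscle score above 7 (0.83, edgeR adjusted p = 0.102). Kmt2e, a SET-domain relative of Kmt2a, rose from 82.8 ± 7.62 to 126.4 ± 14.4 CPM (0.61 ± 0.15 SE, edgeR adjusted p = 0.0269). That call was lost without control replicate 2 (0.57, adjusted p = 0.0504), knockout replicate 2 (0.60, adjusted p = 0.0606) or knockout replicate 4 (0.55, adjusted p = 0.0672) on normal diet, by edgeR. It was also lost with only the groups compared (0.58), with the muscle score (0.57, adjusted p = 0.129) or the mitochondrial share (0.64, adjusted p = 0.0700) as a covariate and without the 4 muscle-rich libraries (0.49, adjusted p = 0.168), all by edgeR. The median of the list was 0.15, with 16 members above 0 and 10 below it. In the other comparisons 0 members of these 2 lists were called by edgeR's fit over all 20 libraries. There 0.116%, 0.795%, 0.372% and 0% of all genes were called for the knockout on high fat diet, diet in controls, diet in knockouts and the interaction. With only the groups compared, edgeR called 1 SET-domain gene for diet in knockouts. Without control replicate 3 on normal diet it called 1 partner and 2 SET-domain genes for diet in controls. For the knockout on normal diet 4 of 16 and 9 of 26 members had an unadjusted p below 0.05 in edgeR, against 2512 of 12082 genes tested. For diet in controls 5 and 7 did, against 1957 of 12082, and DESeq2 called 1 in each. The counts at an unadjusted p below 0.05 were 0 and 1 for the knockout on high fat diet, 3 and 4 for diet in knockouts, and 1 and 3 for the interaction, against 612, 1113 and 772 of all genes, where DESeq2 and voom called 0.

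Genes beside the targeted loci were read as a further measurement of the 2 regions. Within 250 kb of the start of Suv420h1, 28 other genes are annotated and 11 were tested. By edgeR 0 of them were called for the knockout on normal and on high fat diet and for diet in controls and knockouts. Of all genes, 2.65%, 0.116%, 0.795% and 0.372% were called there, and 0 of 11 lies near these shares. In the same order 1, 0, 2 and 2 neighbours had an unadjusted p below 0.05, against 2512, 612, 1957 and 1113 of 12082 genes tested. The nearest measured neighbours were 1810055G02Rik (-0.16 log2 for the knockout on normal diet, edgeR adjusted p = 0.928) and Chka, which encodes a choline kinase (0.36 log2, adjusted p = 0.707).

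Around Suv420h2, 37 other genes are annotated within 250 kb and 12 were tested, of which 2 fell in the knockout on normal diet, where 1.36% of all genes were called lower. Called neighbours numbered 0 for the knockout on high fat diet, 1 for diet in controls and 0 for diet in the knockout. Of all genes, 0.116%, 0.795% and 0.372% were called there. At an unadjusted p below 0.05 in edgeR stood 3 neighbours for the knockout on normal diet, then 1, 3 and 0 in the same order. Of 12082 genes tested, 2512, 612, 1957 and 1113 did so. The neighbours' median for the knockout on normal diet was -0.52 log2, against 0.02 over all genes tested. The nearest annotated gene downstream, Cox6b2, a cytochrome c oxidase subunit gene 4278 bp away (chromosome 7, 4751792 to 4753094), did not pass (-0.09 log2, edgeR adjusted p = 0.941). The nearest tested gene upstream, Hspbp1, 55047 bp away, encodes a co-chaperone of heat shock protein 70 (chromosome 7, 4660521 to 4685068) and fell from 29.5 ± 4.78 to 13.0 ± 3.55 CPM (-1.18 ± 0.31 SE log2, edgeR adjusted p = 0.0430). That call was kept in 9 of the 20 fits that omit a library, and the adjusted p was at most 0.102 in the others. They were the fits without control replicate 2, 4 or 5 or any of the 5 knockout libraries on normal diet, and without knockout replicate 1, 4 or 5 on high fat diet. It was also lost with plain totals (-1.14), with voom (-1.23), with only the groups compared (-1.22), with the muscle score (-1.31) or the mitochondrial share (-0.82) as a covariate and without the 4 muscle-rich libraries (-1.12), all with a fold change near that of the full fit except with the mitochondrial share.

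Sbk2, a protein kinase gene 192998 bp beyond the end of Suv420h2 (chromosome 7, 4940512 to 4964406), fell from 33.2 ± 35.3 to 3.93 ± 0.931 CPM in the knockout on normal diet (-3.05 ± 0.62 SE log2, edgeR adjusted p = 0.0138). It also fell by diet in controls, to 3.94 ± 3.07 CPM (-3.04 ± 0.61 SE, edgeR adjusted p = 0.0236), where 0.389% of all genes were called lower. The second call was lost without control replicate 2 on normal diet (-2.20, edgeR adjusted p = 0.0637), and without control replicate 1, 2 or 4 on high fat diet (adjusted p = 0.0815, 0.0867 and 0.0563). With the muscle score as a covariate the fold changes were -1.49 for the knockout and -1.13 for diet, and without the 4 muscle-rich libraries -1.07 and -1.63 (edgeR adjusted p from 0.144 to 0.724). Neither passed there, nor with the mitochondrial share (-2.73 and -2.59), voom (-2.17 and -2.43) or only the groups compared (-3.09 and -3.08). The same window holds Tnnt1, a troponin gene of slow muscle and 1 of the 17 muscle markers, which spanned 0.314 to 887 CPM among control libraries on normal diet (-5.60 log2 in the knockout, edgeR adjusted p = 0.0613).

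**Figure D5:**
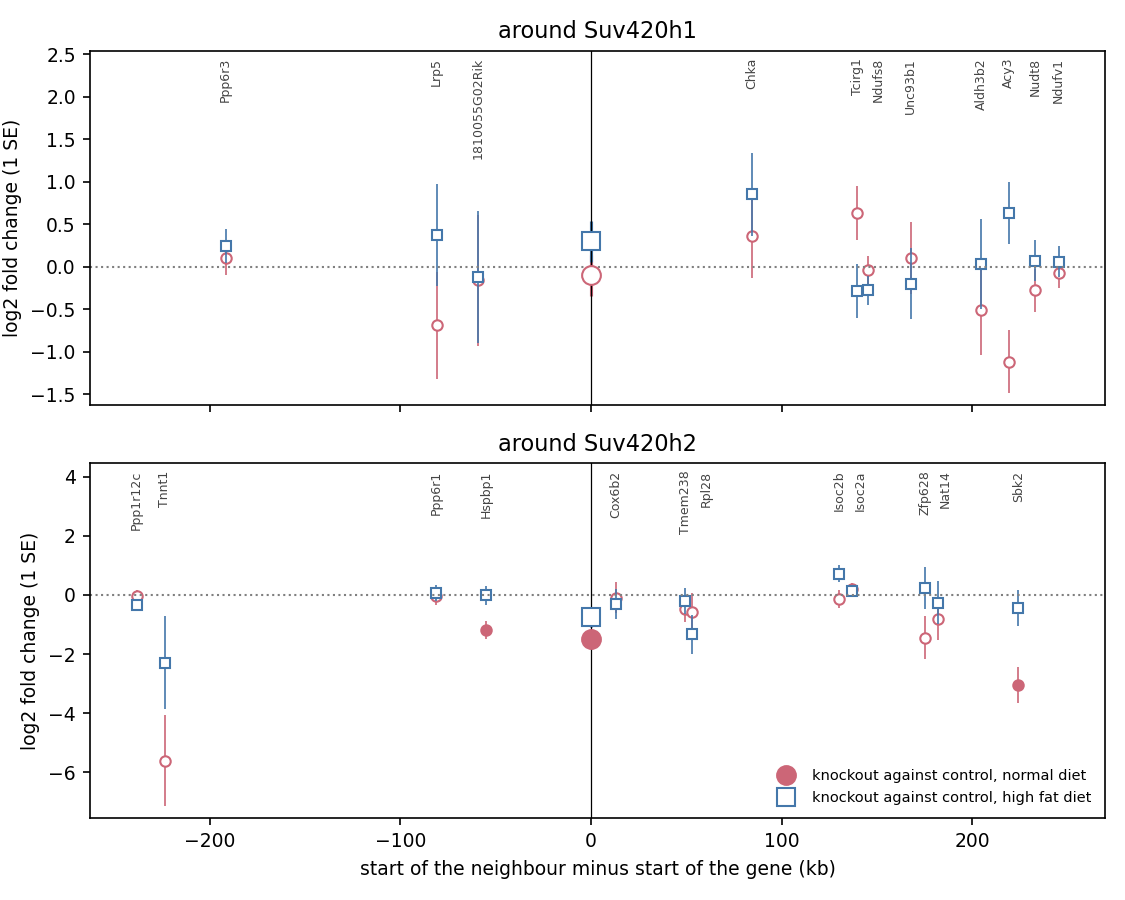
log2 fold changes with 1 SE of the tested genes within 250 kb of Suv420h1 (top) and Suv420h2 (bottom) against the distance between gene starts in kb, for knockout against control on normal diet (red circles) and on high fat diet (blue squares). Large symbols at 0 kb are the targeted genes and filled symbols have an edgeR adjusted p below 0.05, which only Suv420h2, Hspbp1 and Sbk2 reached, all on normal diet.

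Last, the 5 genes whose levels followed each targeted gene most closely were named, by Pearson's r of log2 CPM over the same 20 libraries. All points share their libraries, group differences and depth, so these values describe likeness only. For Suv420h2 they were Abtb1 (0.88), a BTB domain and ankyrin repeat gene, Fkbp1a (0.88), the binding protein of the drug FK506, Cyp4f13 (0.87), a cytochrome P450, Tsen34 (0.87), a subunit of the tRNA splicing endonuclease, and Atxn7l3 (0.86), a subunit of a histone deubiquitinase. After the group means were subtracted, their r was 0.78, 0.73, 0.62, 0.74 and 0.85. Atxn7l3 stayed among the closest 5 by that second measure. Fkbp1a stood at 225.6 ± 21.4 CPM in controls and 153 ± 14.3 CPM in the knockout on normal diet; with high fat feeding the levels were 172.2 ± 43.2 and 141.1 ± 27.0 CPM (SD, n = 5).

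For Suv420h1 the closest were Dexi (0.75), a gene induced by dexamethasone, Tmem109 (0.74), a membrane protein gene, Psmd3 (0.74), a subunit of the proteasome lid, Fam120a (0.72), which encodes an RNA-binding protein, and Cdk16 (0.71), a cyclin-dependent kinase. After subtraction of the group means their r was 0.72, 0.74, 0.65, 0.64 and 0.67. These values over all 20 libraries were below the 5 of Suv420h2.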

How the data were processed

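Brown fat RNA was made into 3' tag libraries by oligo-dT priming, per the labels' protocols. Per the submitters' processing notes, STAR 2.5.3a, featureCounts and limma were used with mm10 and GRCm38; annotation and strand setting were not given in the sources used here. Raw counts per gene were deposited by the authors, as whole, unscaled numbers, and so was a table of log2 fold changes with raw and adjusted p-values. Here 18 gene names that had become dates (0.09% of counts) were left out, 0 sample columns were unmatched, and no library pair was a duplicate (lowest chi-square 8.30 per gene over 40 pairs of the same group). Genes were kept by filterByExpr (minimum count 10) of edgeR 4.0.16 in R 4.3.3, scaled by TMM, and tested in 1 model of 4 group means over all 20 libraries with the robust quasi-likelihood test. Adjusted p-values are Benjamini-Hochberg over 12082 genes, and standard errors are the fold change divided by the root of its F statistic. Per-library values are CPM, group values mean ± SD, and log2 CPM uses a prior count of 2. Exact permutation tests on log2 CPM or ratios used all 252 splits of 5 against 5; correlations used permutations within groups.

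Alternatives were DESeq2 1.42.0 (test and size factors), limma voom 3.58.1, plain totals, no filter, only the groups compared, the replicate number as a block, muscle score and mitochondrial share as covariates, and each library left out. The procedure was tested on simulated data. Named genes were members of the lists called in a comparison of genotype or diet, or else the 2 with the smallest p for the knockout on normal diet; the nearest or called neighbours within 250 kb; and the 5 most alike genes. Members and lists were chosen with earlier results of these data known. The covariate of mitochondrial share, the fits without 4 muscle-rich libraries and the ratio were added after the data were seen. Lists of cell type markers gave the summed CPM per library. White adipocyte (4 of 6 measured), macrophage (6 of 7), endothelial (6 of 6), fibroblast (5 of 5) and red blood cell (5 of 6) markers had 0 members called in the 4 comparisons of 2 groups and the interaction. Of all genes, 2.65% and 0.116% were called for the knockout on normal and on high fat diet. For diet in controls, diet in knockouts and the interaction the shares were 0.795%, 0.372% and 0%. In lists this small, 0 calls lie near all of these shares. Of the brown adipocyte markers Elovl3 rose by diet in the knockout (1.36, edgeR adjusted p = 0.0122), and of the muscle markers Myl1 fell in the knockout on normal diet (-2.84, adjusted p = 0.0321); the others were not called there. Lymphocyte markers (0 of 7 measured) were not analysed here.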

Additional observations from a re-analysis of the deposited data

Results flagged for a closer look

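Suv420h1 stood at 61.2 CPM of the plain library total in control replicate 5 on high fat diet, which was set apart because the gap to the next library of that group covers 0.79 of the group's range, above the critical value of 0.71 for 5 libraries. By chance this rule marks about 1 in 20 of such sets, and 12 sets of 5 libraries were examined, so 1 mark can arise by chance. In the same library Suv420h2 was also the highest of its group, at 27.8 CPM. Its muscle score of -0.07 was the lowest of the group, and its mitochondrial share of 18.1% the second lowest. Their part in this value was not tested.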

How the results depend on the processing

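Suv420h2 was lower under every alternative in the 4 comparisons of genotype or diet. For the knockout on normal diet its call was lost with the muscle score (-1.56, edgeR adjusted p = 0.0590) or mitochondrial share (-0.96) as a covariate and without the 4 muscle-rich libraries (-1.72); with 1 library left out it ran from -1.63 to -1.27. For diet in controls the call was lost with plain totals (-1.44, adjusted p = 0.0520), only the groups compared (-1.50), the muscle score (-1.61), the mitochondrial share (-0.79) and without the muscle-rich libraries (-1.78), and ran from -1.65 to -1.29 with 1 library left out. For diet in the knockout only the exact permutation test (unadjusted) passed (-0.81). The average over diets was lost with the mitochondrial share (-0.75) and ran from -1.23 to -1.01. The cause of these losses was not tested.

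Replicate numbers did not pair the libraries: of 30 same-numbered pairs, 8 had deviations correlated above 0.1 (r from -0.73 to 0.69), and 4 libraries correlated best with their own number. With the replicate number as a block the diet difference of Suv420h2 in controls was -1.48 (edgeR adjusted p = 0.0806), the knockout difference on normal diet -1.48 (adjusted p = 0.0495) and the average -1.11 (adjusted p = 0.0344). Cbx5 (0.72), Atrx (0.67), Kmt2e (0.61) and Hspbp1 (-1.16) in the knockout on normal diet and Sbk2 by diet in controls (-2.81) were then no longer called.

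Values near 0 changed sign without being called. The difference of Suv420h2 between knockout on normal diet and control on high fat diet was -0.02 with no filter, -0.01 with only the groups compared and -0.17 with the mitochondrial share, and ran from -0.18 to 0.17 with 1 library left out. Suv420h1 gave 0.04 for the knockout on normal diet with the mitochondrial share (-0.24 to 0.01 with 1 library left out), and for diet in the knockout 0.01 with no filter, 0.02 with voom, 0.02 with the block, 0.11 with the mitochondrial share, 0.01 without the muscle-rich libraries and 0.01 in the permutation test (-0.13 to 0.13). Its average over diets was -0.11 with the muscle score and -0.05 without the muscle-rich libraries, and Kmt5a gave -0.03 for the knockout on normal diet with the mitochondrial share. The log2 ratio ran from -1.28 to -0.86 for diet in controls and from -1.07 to -0.66 for diet in the knockout with 1 library left out, and exact p was then below 0.05 in 3 and 1 of 10.

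Counts of genes called, the background of each share given, moved more. Under the alternatives other than leaving 1 library out, 320 for the knockout on normal diet became 35 to 884 and 96 for diet in controls 2 to 502. There 45 for diet in the knockout became 8 to 168 and 14 for the knockout on high fat diet 13 to 71. The average went from 363 to 110 to 797, the middle groups from 169 to 127 to 506, and the interaction from 0 to 0 to 12. With 1 library left out the knockout on normal diet gave 127 to 888, diet in controls 21 to 358 and diet in the knockout 6 to 67. The knockout on high fat diet then gave 10 to 17, the average 167 to 713, the middle groups 105 to 245 and the interaction 0 to 2. On high fat diet Suv420h2 counts ran from 42 to 145 in the control libraries and from 26 to 93 in the knockout ones. The knockout libraries ran from 4.38 to 16.2 CPM of the plain total. The counting interval was 2.86 to 6.41 CPM for the lowest of them and 13.05 to 19.81 CPM for the highest.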
